A study of Mus musculus with 59 samples.

Results

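Perineuronal nets are lattices of extracellular matrix that wrap the cell body and proximal dendrites of some neurons, in cortex chiefly the fast-spiking interneurons that make parvalbumin. Their backbone is hyaluronan, a sugar polymer spun out by synthases in the cell membrane. Lecticans, a family of chondroitin sulfate proteoglycans, bind that backbone with help from link proteins, and tenascins tie the lecticans to each other. Nets assemble as cortical critical periods close, and they are known for limiting further rewiring. The 9 genes described here encode the 4 lecticans (Acan, Bcan, Ncan, Vcan), the link proteins Hapln1 and Hapln4, the tenascins Tnr and Tnc, and the hyaluronan synthase Has3. They were taken as a named list, chosen with earlier results of these data known, and matched by identifier. All 9 were among the 18088 genes of the deposited table and among the 16546 that were tested.

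The prefrontal cortex of 59 pups of the mouse strain C57BL/6J was taken on postnatal day 25 for sequencing of messenger RNA. Pups were wild-type (WT) or labelled heterozygous (HT) for Myt1l, a zinc finger transcription factor of neurons, and were female or male. For 3 weeks, from postnatal day 3 to day 24, treatment reached them through the milk of their mothers. It was vehicle, lithium (a mood stabilizer) or fluoxetine (an antidepressant that blocks serotonin reuptake). Each of the 12 groups of genotype, treatment and sex had 5 libraries, except WT fluoxetine females with 4. Doses, the vehicle, the Myt1l allele and the litters are not given in the sources used here. Pups of 1 litter share a mother and so a dose, and p-values then measure only the spread between these libraries.

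Library depth, in whole reads recovered from the deposited values, lay between 25088446 and 35858365. Myt1l itself went against the genotype labels in direction: it averaged 8030 ± 938 normalized counts (SD, n = 10) in libraries labelled HT vehicle and 7078 ± 255 (SD, n = 10) in WT vehicle. A count over the whole gene cannot resolve a deleted part, so the labels are kept, and HT below means the libraries so labelled. Markers of the olfactory bulb, which lies in front of the prefrontal cortex, varied between libraries, and 12 of 59 libraries stood above every vehicle library on a level made of 10 such genes. Of those 12 libraries, 11 were fluoxetine (all 4 WT fluoxetine females, 2 WT fluoxetine males and 5 of 10 HT fluoxetine) and 1 was a WT lithium male. Another 5 libraries stood apart on striatal markers: HT fluoxetine female 2, HT fluoxetine male 2, HT vehicle female 3, HT vehicle male 3 and WT fluoxetine female 2. The 14 fluoxetine libraries other than those of WT males were separated from the other 45 without overlap by 8 genes, 0 of them described here. Every HT fluoxetine library and every WT fluoxetine female lies on one side of that division, and every vehicle library on the other. In HT and in WT females the drug and whatever set the division therefore cannot be told apart.

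The members lie on 6 chromosomes of the mouse build GRCm38, and 3 share chromosome 8. Acan (ENSMUSG00000030607, aggrecan, the lectican that defines mature nets) is at chr7:79053483-79115099 on the plus strand, and Bcan (ENSMUSG00000004892, brevican, made by glia and neurons) at chr3:87987531-88000230 on the minus strand. Ncan (ENSMUSG00000002341, neurocan, abundant in the young brain) is at chr8:70093085-70120873 on the minus strand, beside Hapln4 (ENSMUSG00000007594, the brain link protein that pairs with brevican) at chr8:70083457-70090862 on the plus strand. Vcan (ENSMUSG00000021614, versican, a lectican of glial precursors and vessels) is at chr13:89655312-89742509 on the minus strand, in the same neighbourhood as Hapln1 (ENSMUSG00000021613, the link protein of cartilage and of nets) at chr13:89539796-89611652 on the plus strand. Gaps of 2222 bases between Ncan and Hapln4 and of 43659 bases between Vcan and Hapln1 separate these lectican and link protein pairs. Tnr (ENSMUSG00000015829, tenascin-R, the tenascin of nets) is at chr1:159523769-159931729 on the plus strand, and Tnc (ENSMUSG00000028364, tenascin-C, a tenascin of development and injury) at chr4:63959785-64047015 on the minus strand. Has3 (ENSMUSG00000031910) is at chr8:106870242-106884566 on the plus strand, where 352 of its 6380 exon bases overlap Chtf8 on the opposite strand. Overlaps of 443 of 12867 exon bases with an antisense gene for Tnr, and of 176 of 7772 with a noncoding gene for Tnc, leave those values slightly uncertain, because strand-aware counting is not stated.

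Promoter windows of RefSeq (build GRCm38.p6, 250 bases before to 50 after the start) were found for 7 of the 9 members, in 8 windows. Those of Acan, Tnc and Hapln1 are shown because these genes moved under a drug in the comparisons below, Acan and Tnc in one direction and Hapln1 in the other. Starts are those of RefSeq and need not match the gene starts given above. The Acan window ends before the gene start given there, and the Hapln1 window begins after it. Capitals mark GGGCGG, the GC box, and TATAAA, the TATA box, on either strand.
Acan, chr7:79052976-79053275, plus strand: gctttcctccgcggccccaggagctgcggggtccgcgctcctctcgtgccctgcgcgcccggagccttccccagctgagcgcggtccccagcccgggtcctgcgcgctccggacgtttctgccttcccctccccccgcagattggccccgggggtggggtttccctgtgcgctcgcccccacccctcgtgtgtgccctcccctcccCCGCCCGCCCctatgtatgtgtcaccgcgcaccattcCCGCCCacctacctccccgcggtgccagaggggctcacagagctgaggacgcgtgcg
Tnc, chr4:64046966-64047265, minus strand: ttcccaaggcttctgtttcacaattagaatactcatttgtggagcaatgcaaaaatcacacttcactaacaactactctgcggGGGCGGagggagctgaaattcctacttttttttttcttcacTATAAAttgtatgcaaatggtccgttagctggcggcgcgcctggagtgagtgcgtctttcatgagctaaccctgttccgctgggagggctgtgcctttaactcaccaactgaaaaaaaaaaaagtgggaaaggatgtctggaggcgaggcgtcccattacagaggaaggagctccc
Hapln1, chr13:89540386-89540685, plus strand: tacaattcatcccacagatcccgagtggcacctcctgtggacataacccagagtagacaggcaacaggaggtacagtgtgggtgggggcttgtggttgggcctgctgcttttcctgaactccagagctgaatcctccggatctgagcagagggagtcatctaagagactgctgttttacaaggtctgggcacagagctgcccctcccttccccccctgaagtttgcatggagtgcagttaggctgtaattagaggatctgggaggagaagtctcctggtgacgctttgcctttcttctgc

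Between these windows the base composition differed. The Acan window was 74.0% G and C with 3 GC boxes, 2 of them overlapping, and no TATA box. The Tnc window shown was 47.3% G and C with 1 GC box and 1 TATA box, and the Hapln1 window was 54.3% G and C with neither. Another Tnc window, chr4:64046887-64047186, overlaps the one shown and was 54.0% G and C, also with 1 GC box and 1 TATA box. Among 32851 mouse promoter windows of the same length, 35.7% held a GC box and 13.6% a TATA box. The letters AAAGTTT, the core bound by the Myt1 family, and TGANTCA, the AP-1 site, were in 4.74% and 7.81% of those windows and in 0 of the 8 member windows. A match or its absence in these letters describes the windows only.

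In the WT vehicle libraries, the members spanned a wide range of levels. Per kilobase of exon, Bcan averaged 1497 ± 110 normalized counts in WT vehicle (SD, n = 10, as for the other members here), and its range overlapped that of Ncan at 1324 ± 123. Next came Tnr at 584 ± 31.9, whose range overlapped that of Hapln4 at 432 ± 68.1. Hapln1 stood at 258 ± 18.3, Vcan at 71.0 ± 9.31 and Tnc at 28.9 ± 6.41, each apart from its neighbours in this order. Has3 at 12.6 ± 2.96 and Acan at 10.4 ± 2.86 were the lowest, with overlapping ranges. Fewer cells of a type and less RNA per cell cannot be told apart in bulk tissue such as this.

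**Figure D1:**
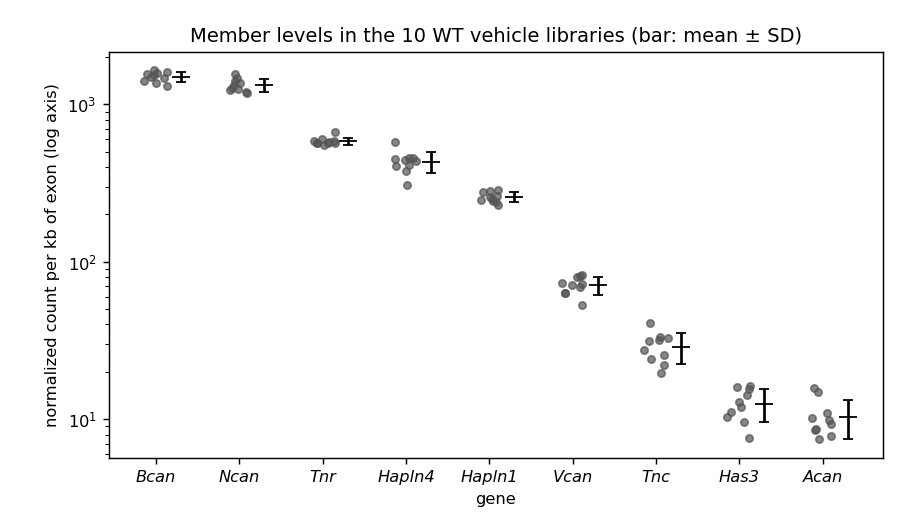
Normalized counts per kilobase of exon (log axis) of the 9 members in the 10 WT vehicle libraries, 1 point per library, with mean and SD. Bcan (1497) and Ncan (1324) sit highest, and Has3 (12.6) and Acan (10.4) lowest.

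Acan, Tnc and Hapln4 varied most across the 59 libraries, with coefficients of variation of 56.9%, 34.7% and 31.2%, while Tnr (10.2%), Ncan (12.4%) and Bcan (14.3%) varied least. Ordered by group mean, the 12 groups ran from 215 ± 70.8 normalized counts in WT fluoxetine females (SD, n = 4) down to 70.7 ± 7.26 in WT vehicle females (SD, n = 5) for Acan. For Tnc the highest group was again WT fluoxetine females and the lowest HT lithium males, and for Hapln4 the highest was HT lithium males and the lowest WT fluoxetine females. Highest and lowest group means differed by 3.04 times for Acan, 2.37 times for Hapln4 and 2.29 times for Tnc, against 1.08 times for Tnr and 1.18 times for Bcan. In every member, all 11 neighbouring pairs of groups in this order had overlapping ranges.

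**Figure D2:**
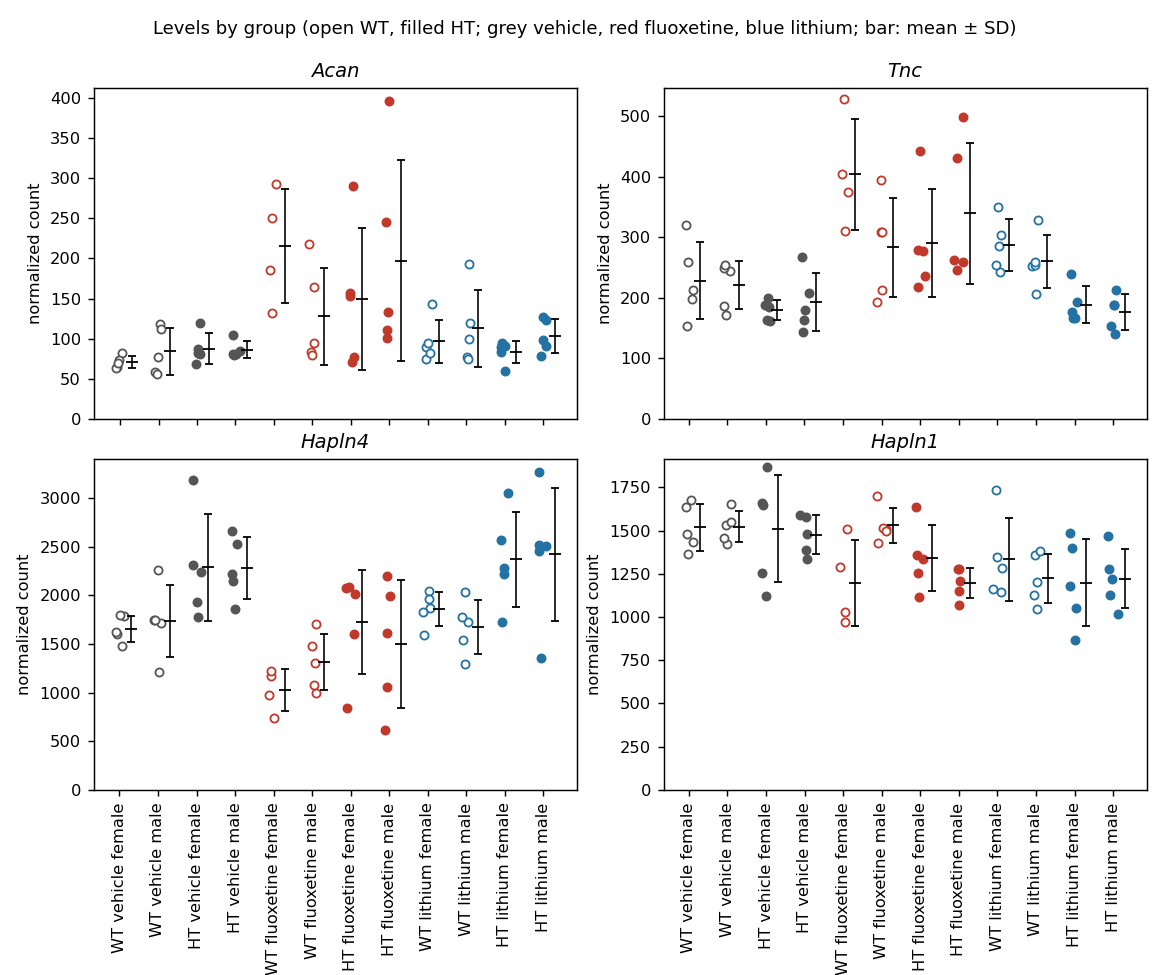
Normalized counts (linear axis from 0) of Acan, Tnc, Hapln4 and Hapln1 in each library of the 12 groups, with mean and SD. Fluoxetine libraries reach 396 for Acan against at most 119 in vehicle, and fall to 611 for Hapln4 against at least 1209 in vehicle.

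Under fluoxetine 4 members differed from vehicle, and not all in 1 direction. The lectican Acan and the tenascin Tnc were higher and the link protein Hapln4 lower in both genotypes, and Hapln1 was lower in HT. The 2 most abundant lecticans, Bcan and Ncan, and the net tenascin Tnr showed differences near 0. Differences are fluoxetine minus vehicle on the scale of log2(normalized count + 1), with the sexes averaged, from limma with Benjamini-Hochberg adjustment over all tested genes, and a gene with an adjusted p under 0.05 is called.

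Among the lecticans, Acan in WT ranged from 79.3 to 292 normalized counts under fluoxetine (median 164, n = 9) and from 55.8 to 119 under vehicle (median 71.5, n = 10). All 9 fluoxetine libraries lay above the vehicle mean of 77.4 and 6 above every vehicle library, so the groups overlapped in the lower fluoxetine libraries only. Acan rose by a log2 difference of 1.04 (SE 0.224, adjusted p = 0.0027), a 2.06-fold change. In HT it ranged from 70.9 to 396 under fluoxetine (median 143, n = 10) and from 68.0 to 119 under vehicle (median 81.5, n = 10). Again 6 fluoxetine libraries were above every vehicle library, while 2 were below the vehicle mean of 86.8. The rise in HT was 1.73-fold (log2 0.79, SE 0.217, adjusted p = 0.0054).

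The other lecticans did not pass the test. Vcan, whose mean under fluoxetine was 1096 ± 154 in WT (SD, n = 9) and 1121 ± 220 in HT (SD, n = 10), differed from vehicle by log2 0.10 (95% interval -0.10 to 0.31) and 0.15 (-0.05 to 0.35). Bcan differed by 0.02 (-0.15 to 0.19) in WT and -0.04 (-0.20 to 0.13) in HT. For Ncan the differences were 0.07 (-0.07 to 0.20) and -0.02 (-0.15 to 0.12). These intervals, unadjusted, leave out a change of the size seen in Acan.

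Tnc, the tenascin of developing and injured tissue, followed Acan in direction. In WT it ranged from 192 to 527 normalized counts under fluoxetine (median 309) and from 153 to 320 under vehicle (median 229), with 7 of 9 fluoxetine libraries above the vehicle mean of 225. Tnc rose 1.5-fold in WT (log2 0.58, SE 0.143, adjusted p = 0.0062). In HT the ranges were 218 to 498 under fluoxetine (median 270) and 144 to 267 under vehicle (median 182), and all 10 fluoxetine libraries exceeded the vehicle mean of 186. The rise there was 1.64-fold (log2 0.72, SE 0.139, adjusted p = 0.00017). Tnr, the tenascin of mature nets, differed by log2 0.00 (-0.15 to 0.15) in WT and -0.07 (-0.21 to 0.08) in HT. Its libraries nevertheless spread widely in HT fluoxetine, from 4955 to 9714 normalized counts, against 7146 to 8310 in HT vehicle, and 4 fluoxetine libraries lay above and 4 below the whole vehicle range.

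Of the link proteins, Hapln4 fell in both genotypes and Hapln1 in HT. Hapln4 in WT ranged from 739 to 1704 normalized counts under fluoxetine (median 1169) and from 1209 to 2264 under vehicle (median 1730), and 8 of 9 fluoxetine libraries were below the vehicle mean of 1697. Hapln4 fell to 0.679 of vehicle (log2 -0.56, SE 0.173, adjusted p = 0.025). Without WT fluoxetine female 4, WT fluoxetine male 2 or WT vehicle male 2 that call was lost, with adjusted p up to 0.086 and the log2 difference between -0.62 and -0.48 over all libraries left out in turn. In HT it ranged from 611 to 2204 under fluoxetine (median 1803) and from 1774 to 3186 under vehicle (median 2232). All 10 fluoxetine libraries were below the vehicle mean of 2287, and Hapln4 fell to 0.662 of vehicle (log2 -0.60, SE 0.168, adjusted p = 0.0067). Hapln1 in HT ranged from 1070 to 1636 (median 1265) against 1123 to 1867 (median 1532) and fell to 0.852 of vehicle (log2 -0.23, SE 0.0876, adjusted p = 0.041). That call was lost in 11 of 20 fits with 1 library left out, and with HT vehicle female 1 left out the adjusted p was 0.10. In WT Hapln1 differed by -0.18 (-0.35 to 0.00, adjusted p = 0.17). The synthase Has3 differed by -0.03 in WT (-0.29 to 0.24) and 0.18 in HT (-0.07 to 0.44).

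In all, 3 of 9 members were called in WT and 4 of 9 in HT, where 14.9% and 29.2% of all tested genes were called. The list was chosen with earlier results of these data known, so these counts describe it and are not an independent test. By direction, 2 members were higher and 1 lower in WT against 8.81% and 6.08% of all genes, and 2 were higher and 2 lower in HT against 14.6% and 14.6%. The median log2 difference of the 9 members was 0.02 in WT and -0.02 in HT, and over all tested genes it was -0.0041 and -0.0051. Averaged over the genotypes, a comparison added after the data were seen, the same 4 members were called, with 42.2% of all genes. The differences were 0.92 for Acan, 0.65 for Tnc, -0.58 for Hapln4 and -0.20 for Hapln1. Each kept its call with any 1 of the 39 libraries left out. With the olfactory bulb level as a covariate, 0 members were called in this average. The test of a difference in response between the genotypes called 0 members and 0.0302% of all genes. The intervals of that difference were wide, for Acan -0.86 to 0.36 and for Tnc -0.26 to 0.53.

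**Figure D3:**
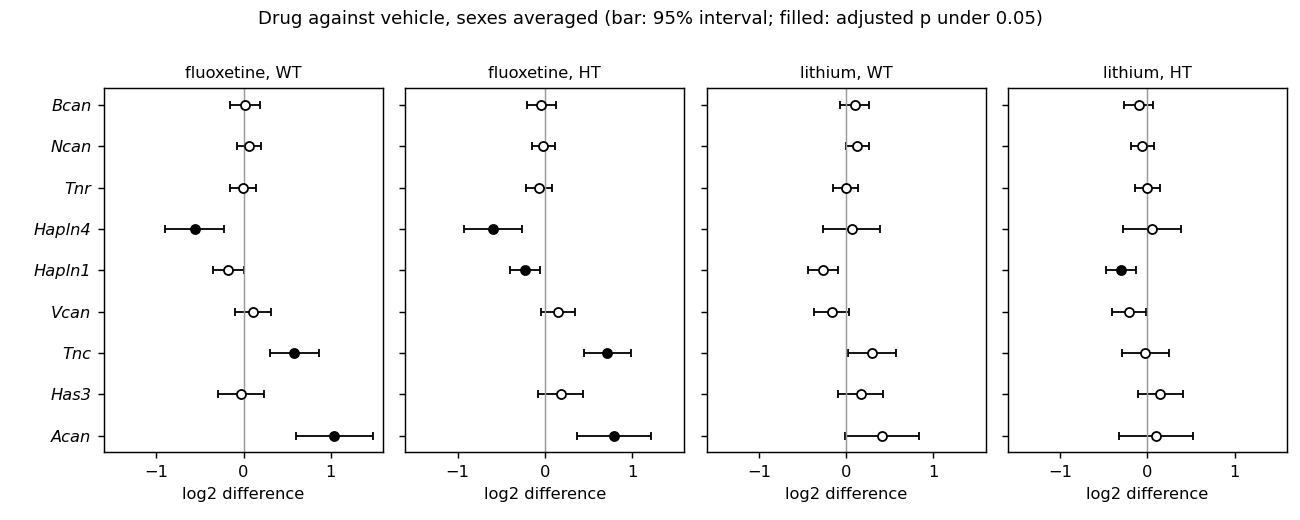
Log2 differences from vehicle (x axis) of the 9 members for fluoxetine and lithium in WT and HT, with unadjusted 95% intervals, filled where the adjusted p was under 0.05. Acan (1.04 and 0.79) and Tnc (0.58 and 0.72) are to the right and Hapln4 (-0.56 and -0.60) to the left of 0 under fluoxetine in both genotypes.

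Split by sex, 4 members were called in WT females and none in WT males. All 4 WT fluoxetine females were high in bulb markers and lay within the division of the fluoxetine libraries, with every vehicle library outside it. Drug and division thus cannot be told apart in WT females. In WT females Acan was 132, 186, 251 and 292 normalized counts under fluoxetine and 63.7 to 81.5 under vehicle, so these groups did not overlap. The difference was log2 1.54 (SE 0.326, adjusted p = 0.0016). Tnc differed by 0.84 (adjusted p = 0.0048), Hapln4 by -0.72 (adjusted p = 0.038) and Hapln1 by -0.36 (adjusted p = 0.045), and 19.8% of all genes were called. The Hapln4 and Hapln1 calls were each lost in 6 of 9 fits with 1 library left out.

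In WT males Acan was 79.3, 83.6, 95.2, 164 and 217 under fluoxetine and 55.8, 58.6, 76.5, 111 and 119 under vehicle. The ranges overlapped, and 3 of the 5 fluoxetine libraries lay inside the vehicle range. Acan differed by 0.55 (-0.06 to 1.15), Tnc by 0.32 (-0.06 to 0.71) and Hapln4 by -0.40 (-0.87 to 0.06), with adjusted p of 0.94 for each. Limma called 0% of all genes in WT males, where 800 had an unadjusted p under 0.05, and edgeR and DESeq2 also called 0. The difference between the sexes in WT was itself tested and called 0 members and 0.0846% of all genes. For Acan it was -0.99 (male minus female, -1.87 to -0.11, adjusted p = 0.39). WT fluoxetine females lie within the division and WT fluoxetine males outside it, so sex and division cannot be told apart in that test.

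In HT females Acan was 70.9, 77.0, 153, 157 and 291 under fluoxetine, 2 of the 5 libraries lying within the vehicle range of 68.0 to 119. Only Tnc passed there (log2 0.65, adjusted p = 0.034, with 6.85% of all genes called), and without HT fluoxetine female 4, at 443 the highest of its group, its adjusted p was 0.18. The Tnc call in HT females was also lost without HT vehicle female 1, 3 or 4. In HT males Acan was 101, 111, 134, 245 and 396 under fluoxetine and 80.2 to 104 under vehicle. Acan (0.98, adjusted p = 0.028), Tnc (0.78, adjusted p = 0.0085) and Hapln4 (-0.74, adjusted p = 0.032) were called, with 13.4% of all genes. Without HT fluoxetine male 1, whose Acan was the highest of all libraries and Hapln4 the lowest, 0 of these 3 passed, with adjusted p of 0.19 for Acan, 0.068 for Tnc and 0.24 for Hapln4. Acan and Hapln4 also lost their calls in HT males without HT fluoxetine male 3, HT vehicle male 2 or HT vehicle male 3.

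The level of olfactory bulb markers moved with these members. All 10 markers, among them Eomes and Cdhr1 of the projection neurons and Th of the interneurons of the bulb, were called higher under fluoxetine in both genotypes, with a median log2 difference of 2.90 in WT and 2.54 in HT. Of all tested genes, 8.81% were called higher in WT and 14.6% in HT. The markers were chosen after the data were seen, so these calls describe the list and are not an independent test. The bulb level was the mean of the standardized log2 values of the 10 markers. It ran from -1.16 to 0.74 in WT vehicle and from -0.05 to 1.94 in WT fluoxetine. In HT it ran from -1.16 to 0.33 under vehicle and from -1.16 to 2.14 under fluoxetine. The named markers Cdhr1, Th and Eomes were above 0 in every vehicle library. Cdhr1 was at least 27.8 normalized counts in HT vehicle and 62.1 in WT vehicle, Th at least 60.8 and 35.9, and Eomes at least 1.71 and 1.14.

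Of the 9 members, Acan followed that level most closely. In HT fluoxetine the 5 libraries above every vehicle library in bulb markers had Acan from 153 to 396, and the other 5 had 70.9 to 134. In WT fluoxetine the 6 such libraries had 132 to 292, and the other 3 had 79.3 to 95.2. Fluoxetine libraries inside the vehicle range of bulb markers thus had Acan between 70.9 and 134, where vehicle libraries had 55.8 to 119. Hapln4 went the other way, from 739 to 1218 in the 6 WT fluoxetine libraries with high bulb markers and from 1310 to 1704 in the other 3. In HT fluoxetine its ranges overlapped, 611 to 2086 in the 5 high libraries and 1614 to 2204 in the other 5. Tnr was 4955 to 7771 in the 5 high HT libraries and 7788 to 9714 in the other 5. In WT its ranges of 6446 to 8051 and 7505 to 8351 overlapped. The ranges of Vcan, Hapln1 and Tnc did not overlap in WT and overlapped in HT. The share of all genes separated in this way was not counted, so these gaps describe the libraries only.

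Across all 59 libraries, as deviations from group means, Acan correlated with the bulb level at Pearson r = 0.81 and Spearman rho = 0.79 (permutation p = 1e-05 each, the smallest that 100000 resamples within groups can give; adjusted p = 9e-05 over 9 relations). Without the 2 libraries whose deviation in bulb level was farthest from the median deviation, r was 0.77. Tnc (r = 0.52, rho = 0.49, adjusted permutation p = 0.00087 and 0.00198) and Vcan (r = 0.46, rho = 0.48, adjusted permutation p = 0.00135 and 0.00177) also rose with it. Hapln4 (r = -0.56, rho = -0.54, adjusted permutation p = 0.000135 and 0.000675), Tnr (r = -0.51, rho = -0.41, adjusted permutation p = 0.00371 and 0.0106) and Hapln1 (r = -0.34, rho = -0.31, adjusted permutation p = 0.0108 and 0.0288) declined with it. Bcan, Ncan and Has3 had r of 0.06, 0.04 and -0.07. These 6 relations kept their sign without the 2 farthest libraries, at 0.45 for Tnc, 0.42 for Vcan, -0.49 for Hapln4, -0.49 for Tnr and -0.33 for Hapln1.

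**Figure D4:**
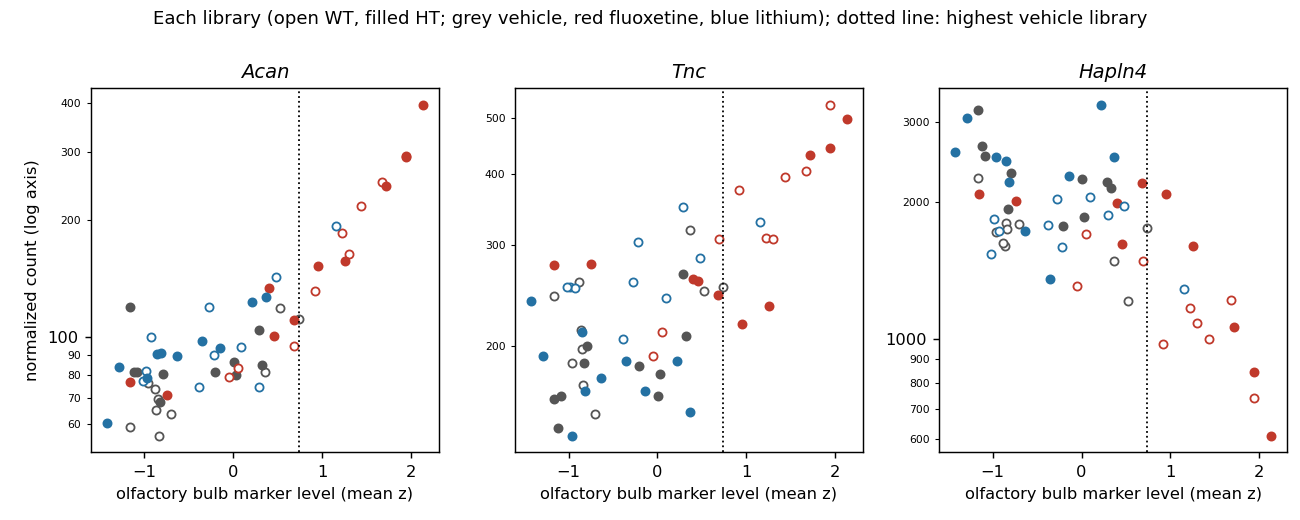
Normalized counts (log axis) of Acan, Tnc and Hapln4 in each of the 59 libraries against the olfactory bulb marker level (mean of standardized log2 values), with the highest vehicle library at 0.74 as a dotted line. To the right of the line lie 11 fluoxetine libraries and 1 lithium library, where Acan is between 132 and 396.

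With the bulb level as a covariate, the fluoxetine difference of Acan was log2 0.22 in WT (adjusted p = 0.84) and 0.13 in HT (adjusted p = 0.67), and that of Hapln4 was -0.12 (adjusted p = 0.95) and -0.25 (adjusted p = 0.40). Tnc differed by 0.24 in WT (adjusted p = 0.75) and kept its call in HT at 0.44 (adjusted p = 0.037). Leaving out the 12 libraries with high bulb markers, a choice made after seeing the data, left HT differences of 0.10 for Acan (adjusted p = 0.77), -0.18 for Hapln4 (adjusted p = 0.48), -0.14 for Hapln1 (adjusted p = 0.44) and 0.54 for Tnc (adjusted p = 0.012). In WT that comparison could not be fitted, because no female fluoxetine library remained. With the division of the 3 fluoxetine groups as a term, 0 members and 0% of all genes were called, and the difference for Acan in HT was -0.22. All HT fluoxetine libraries lie within the division, so the size of that term was set by WT fluoxetine females against WT fluoxetine males. This fit therefore cannot tell drug and division apart in HT, and no conclusion is drawn from its loss of calls. The covariate fits were made with the result known, and whether bulb tissue accounts for the differences was not tested beyond these values.

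Markers of the parvalbumin interneurons that wear nets moved in both directions under fluoxetine. In WT 4 of 12 were higher and 2 lower, where 14.9% of all genes were called, and in HT 4 were higher and 5 lower, where 29.2% were, with medians of -0.07 and -0.00084. Pvalb fell, by a log2 difference of 0.55 in WT (adjusted p = 0.025) and 0.84 in HT (adjusted p = 0.00022). It averaged 572 ± 66.1 normalized counts in WT vehicle and 403 ± 95.8 in WT fluoxetine, and 785 ± 214 and 465 ± 175 in HT (SD, n = 10, 9, 10 and 10). The potassium channel gene Kcnc2 also fell (-0.25 and -0.30, adjusted p = 0.015 and 0.0010), and Syt2, a synaptotagmin of their terminals, fell in HT (-0.72, adjusted p = 0.012). Gad1 and Gad2, which make GABA in all inhibitory neurons, rose (Gad1 0.60 and 0.48, Gad2 0.31 and 0.35, adjusted p from 0.00026 to 0.0092). The mean standardized level of the 12 markers ran from -0.31 to 0.18 in WT vehicle and -0.27 to 0.37 in WT fluoxetine. In HT it ran from -0.21 to 0.85 under vehicle and -0.73 to 0.42 under fluoxetine. The part of these cells in the Hapln4 difference was not tested.

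Markers of some other cells differed under fluoxetine as well. Of 10 microglial markers 5 were lower in WT and 7 in HT. Their mean standardized level ran from -0.26 to 0.56 in WT vehicle and -1.24 to 0.01 in WT fluoxetine. In HT it ran from -0.39 to 2.72 under vehicle and from -1.34 to 0.39 under fluoxetine. The highest HT vehicle levels were in male 3 (2.72) and female 3 (2.43), both high in striatal markers. Of 12 markers of immature neurons 7 were higher in WT and 8 in HT, with levels from -0.92 to 0.41 and -0.27 to 1.27 in WT vehicle and fluoxetine and from -1.62 to -0.03 and -0.88 to 1.17 in HT. Dcx, which marks young neurons and is among them, averaged 2866 ± 1155 normalized counts in WT vehicle and 5416 ± 2282 in WT fluoxetine (SD, n = 10 and 9). Of 9 markers of cortical excitatory neurons 1 was lower in WT and 3 in HT, with levels from -0.16 to 0.50 and -1.57 to 0.27 in WT vehicle and fluoxetine and from -0.41 to 0.72 and -2.87 to 0.72 in HT. Of 3 tested choroid plexus markers 1 was higher in each genotype, with levels from -1.74 to 0.51 and -0.40 to 1.251 in WT and from -0.89 to 0.50 and -0.59 to 1.91 in HT. Of these 4 lists only Folr1, an untested choroid plexus gene, was at 0 in any vehicle or fluoxetine library. Mean levels of blood markers were -0.65 and 0.61 in WT vehicle and fluoxetine and -0.54 and 0.28 in HT. Those of meningeal fibroblast markers were -0.23 and 0.41 in WT and -0.20 and 0.58 in HT. Astrocyte levels averaged -0.04 and -0.22 in WT and 0.60 and -0.15 in HT. Oligodendrocyte precursor levels averaged -0.13 and 0.13 in WT and 0.32 and 0.21 in HT. The ranges overlapped in each. Called in either direction were 14.9% of all genes in WT and 29.2% in HT. The few cortical excitatory and choroid plexus calls did not clearly exceed those shares. The part of these cells in the member differences was not tested.

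Lithium changed 1 member. Hapln1, the link protein of nets, ranged from 867 to 1486 normalized counts in HT lithium (median 1201, n = 10) and from 1123 to 1867 in HT vehicle (median 1532, n = 10). All 10 lithium libraries were below the vehicle mean of 1493 and 3 below every vehicle library. Hapln1 fell to 0.808 of vehicle in HT (log2 -0.31, SE 0.0876, adjusted p = 0.040), 1 of 9 members where 2.84% of all genes were called. The call was lost in 12 of 20 fits with 1 library left out, at most at an adjusted p of 0.12 without HT lithium female 2, and without the 5 libraries high in striatal markers (-0.27, adjusted p = 0.19). In WT it ranged from 1046 to 1734 (median 1243) against 1362 to 1680 (median 1505), with 8 of 10 lithium libraries below every vehicle library and WT lithium female 5 above all of them. The WT difference was -0.26 (SE 0.0876, adjusted p = 0.12), and 0 of 9 members were called in WT against 1.61% of all genes.

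An average over the genotypes, added after the data were seen, gave Hapln1 a fall to 0.821 of vehicle (log2 -0.28, SE 0.0620, adjusted p = 0.0018), and 8.82% of all genes were called. It was the only member called there, and it kept the call with each of the 40 libraries left out in turn, with the bulb or striatal level as a covariate and without the libraries high in either. The other link protein, Hapln4, differed under lithium by 0.06 in WT (-0.27 to 0.39) and 0.05 in HT (-0.28 to 0.38). Acan differed by 0.41 in WT (-0.02 to 0.83, adjusted p = 0.39) and 0.10 in HT (-0.33 to 0.52), and its highest WT lithium library, male 1 at 193, was the lithium library high in bulb markers. For Vcan the differences were -0.17 (-0.37 to 0.03) and -0.21 (-0.41 to -0.01), with adjusted p of 0.47 and 0.27. Tnc differed by 0.30 (0.03 to 0.57) in WT and -0.02 (-0.30 to 0.25) in HT, with adjusted p of 0.30 and 0.96. The test of lithium by genotype called 0 members and 0 of all genes, with 829 at an unadjusted p under 0.05 and 0 by edgeR or DESeq2. Lithium and fluoxetine share their vehicle libraries, so the falls of Hapln1 under both are not independent of each other.

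Genotype was compared within each treatment and called 0 members in each, where 0%, 0.0423% and 0.00604% of all genes were called under vehicle, fluoxetine and lithium. Under vehicle 1618 genes had an unadjusted p under 0.05, edgeR called 0 genes and DESeq2 called 4. Hapln4 differed in the 3 treatments by log2 0.43 (0.10 to 0.75), 0.39 (0.05 to 0.73) and 0.41 (0.08 to 0.74) in HT minus WT. In vehicle it was 2287 ± 424 normalized counts in HT and 1697 ± 267 in WT (SD, n = 10 each), in fluoxetine 1611 ± 577 and 1186 ± 289 (n = 10 and 9), and in lithium 2399 ± 563 and 1769 ± 240 (n = 10 each). Tnc differed by -0.26 (-0.53 to 0.01), -0.12 (-0.40 to 0.16) and -0.58 (-0.85 to -0.31). Its lithium levels were 182 ± 29.0 in HT and 273 ± 43.3 in WT (n = 10 each), the widest genotype gap of any member, at an adjusted p of 0.32. Ncan differed by 0.24 (0.10 to 0.37), 0.15 (0.02 to 0.29) and 0.05 (-0.08 to 0.18), with adjusted p of 0.30, 0.79 and 1.0.

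Averaged over the 3 treatments, a comparison added after the data were seen, Hapln4 was higher in libraries labelled HT by log2 0.41 (SE 0.0980, adjusted p = 0.041) and Tnc lower by -0.32 (SE 0.0810, adjusted p = 0.049), 2 of 9 members where 0.453% of all genes were called. Hapln4 was above the WT mean of the same treatment and sex in 25 of 30 HT libraries, and the HT mean was higher in 6 of 6 pairs of groups. Tnc was below in 26 of 30 HT libraries, and the HT mean was higher in 1 of 6 pairs. Ncan, at 0.15 (SE 0.0395), had an adjusted p of 0.074 and a higher HT mean in 6 of 6 pairs. Both calls stood at the threshold. Leaving out 1 library lost Hapln4 in 24 of 59 fits, at most at an adjusted p of 0.066 without HT lithium male 4, and Tnc in 44 of 59, at most at 0.079 without HT fluoxetine female 5. Over those fits the difference lay between 0.38 and 0.46 for Hapln4 and between -0.35 and -0.30 for Tnc. Without the 5 libraries high in striatal markers Hapln4 differed by 0.36 (adjusted p = 0.13) and Tnc by -0.31 (adjusted p = 0.12). With the bulb level as a covariate both were called, at 0.34 (adjusted p = 0.027) and -0.27 (adjusted p = 0.043).

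**Figure D5:**
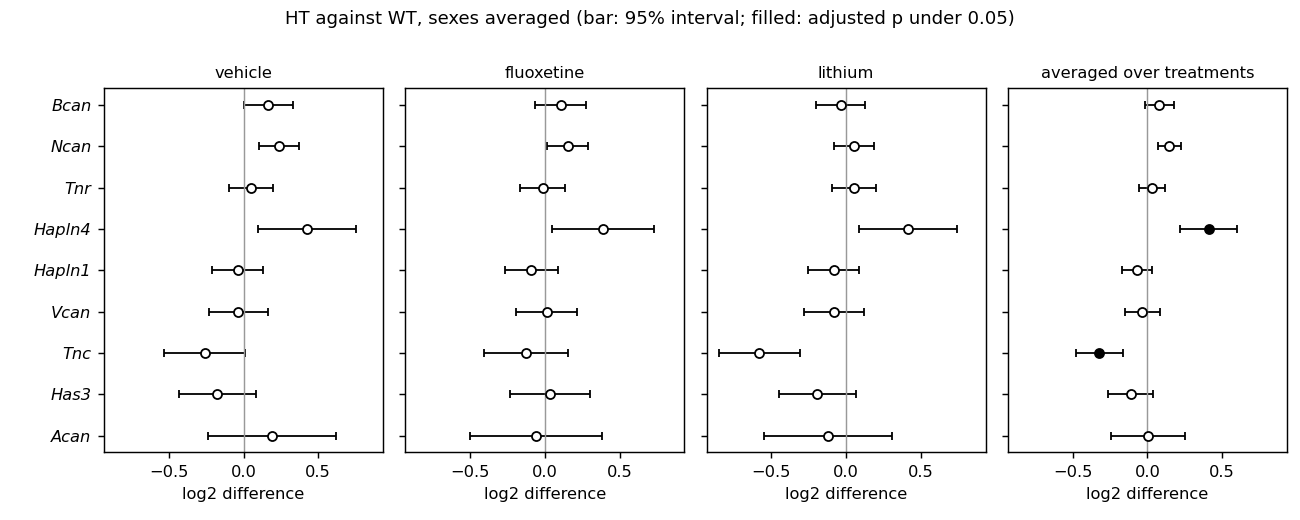
Log2 differences of HT minus WT (x axis) for the 9 members under vehicle, fluoxetine and lithium and averaged over the 3, with unadjusted 95% intervals, filled where the adjusted p was under 0.05. Hapln4 lies at 0.39 to 0.43 in each treatment, and only in the average are Hapln4 (0.41) and Tnc (-0.32) filled.

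Between the sexes under vehicle, 0 of 9 members were called, with 0.0846% of all genes. The member differences, male minus female, ran from -0.15 for Has3 to 0.10 for Acan.

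Genes that make, trim or bind the same matrix were counted in the same way. Of 20 matrix proteases and inhibitors, 4 were higher and 1 lower under fluoxetine in WT, where 14.9% of all genes were called, and 3 were higher and 3 lower in HT, a share close to the 29.2% of all genes. Their medians were 0.04 and 0.02. Mmp14, a membrane metalloprotease, rose by log2 0.56 and 0.57 (adjusted p = 0.0027 and 0.00034), and Adamts15, a protease that cuts lecticans, by 0.56 and 0.53 (adjusted p = 0.0041 and 0.0014). Adamts5, the main aggrecanase of cartilage, rose by 0.89 in WT (adjusted p = 0.0030), and the inhibitor Timp4 fell by 0.38 in HT (adjusted p = 0.0010). Ctss, the microglial cathepsin S, fell in both (-0.20 and -0.28, adjusted p = 0.040 and 0.0017).

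Of 21 genes of enzymes that build or modify chondroitin sulfate chains, 2 were higher and 1 lower under fluoxetine in WT, and 2 higher and 3 lower in HT, shares below the 14.9% and 29.2% of all genes. Chpf2, a chain polymerizing factor, fell by 0.29 in WT (adjusted p = 0.00066) and 0.21 in HT (adjusted p = 0.0025), and Xylt2, which adds the first sugar of the chain, rose by 0.17 and 0.18 (adjusted p = 0.044 and 0.016). Of 16 other link proteins, tenascins and proteoglycans, 3 were higher and 1 lower in WT, against 14.9% of all genes called, and 1 higher and 2 lower in HT, below the share of all genes. Among them the proteoglycan Cspg5 fell (-0.12 and -0.16, adjusted p = 0.040 and 0.0017) and Spock3 rose (0.32 and 0.27, adjusted p = 0.0095 and 0.010). Hapln3, the link protein gene next to Acan, rose in WT by 0.54 (adjusted p = 0.044), and Bgn, biglycan, by 0.38 (adjusted p = 0.0496). Of 9 other genes of hyaluronan synthesis, breakdown and binding, 0 were called under fluoxetine; the closest, Cemip2, a cell-surface hyaluronidase, differed by 0.29 in WT (adjusted p = 0.053) and 0.24 in HT (adjusted p = 0.065).

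Among 15 receptors and ligands held by nets, Nptx2, a pentraxin that gathers glutamate receptors on parvalbumin cells, was higher in all 4 drug comparisons. It rose under fluoxetine by 0.33 in WT and 0.20 in HT (adjusted p = 0.0029 and 0.025) and under lithium by 0.53 and 0.33 (adjusted p = 1.2e-05 and 0.0057). Rtn4r and Rtn4rl1, Nogo receptors of which the family binds chondroitin sulfate, fell under fluoxetine in HT (-0.41 and -0.36, adjusted p = 0.013 each). With Nptx2 they were the only genes of this list called there, and in WT only Nptx2 was. Both shares were below the 29.2% of all genes called in HT and the 14.9% in WT. Under lithium, Cemip, which breaks down hyaluronan, rose in WT and HT (0.27 and 0.33, adjusted p = 0.030 and 0.0045), as did the sulfotransferase Chst11 (0.19 and 0.13, adjusted p = 0.0045 and 0.039). Arsb, a sulfatase, fell in WT (-0.16, adjusted p = 0.017). In HT the inhibitor Timp2 rose (0.25, adjusted p = 0.024), the glypican Gpc1 rose (0.18, adjusted p = 0.047) and Adamts1, a protease that cuts lecticans, fell (-0.39, adjusted p = 0.023).

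Likeness was measured as Pearson's r of deviations from group means over the 59 libraries, a description in which all genes share library, depth and dissection. The genes most like Hapln4 were Sema7a (0.93), Atp2b2 (0.90) and Pvalb (0.90), and those most like Acan were Slc6a11 (0.93), Gprc5b (0.93) and Inpp5j (0.93). For Tnr they were Dst (0.93), Ank3 (0.90) and Kif1b (0.88), and for Tnc Cacna1d (0.79), Capn6 (0.78) and Kcnb2 (0.78). Bcan was most like Tril (0.89), Mtss1l (0.89) and Rnpepl1 (0.88), and Ncan most like Fasn (0.79), Emc1 (0.73) and Skiv2l (0.72). Vcan was most like Sox2ot (0.82), Chd7 (0.80) and Wsb1 (0.80), and Hapln1 most like Chrdl1 (0.79), Vcam1 (0.74) and P2ry12 (0.74). Has3 had the weakest likeness, with Bace1 at 0.64, Bcl6 at 0.60 and Cdip1 at 0.59.

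Between members, the neighbouring genes of a pair showed little likeness, at r = -0.08 for Ncan and Hapln4 and 0.07 for Vcan and Hapln1. Bcan and Ncan, the 2 abundant lecticans, varied together (r = 0.61), as did Acan and Tnc (0.57) and Acan and Vcan (0.52). Hapln4 varied against Vcan (-0.61), Tnc (-0.57) and Acan (-0.57) and with Tnr (0.47), and Acan varied against Tnr (-0.57).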

How the data were processed

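Libraries were stranded and made from messenger RNA (TruSeq), per the labels' protocols. Salmon 0.11.2, the build GRCm38, R 3.6.0 and DESeq2 1.19.11 are named in the submitters' processing notes, without their roles. The deposited values are a signal per gene, called normalized counts here: read counts divided by the authors by a size factor per library. Within each library 100% of values were whole multiples of 1 step (tolerance 0.01), size factors ran from 0.850 to 1.203, and 18077 identifiers matched a symbol.

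The 9 members and all other lists were chosen with earlier results of these data known. Values plus 1 were put on the log2 scale for the 16546 genes with a mean of at least 10, and limma 3.58.1 in R 4.3.3 fitted 12 group means with a trended, robust prior. The design had left the unit open, and its branch for normalized values was used. P-values were adjusted over all tested genes. Recovered reads were tested with edgeR 4.0.16 and DESeq2 1.42.0. Other alternatives were pseudocounts of 0.5 and 5, filters, quantile normalization, no trend, the compared groups alone, the replicate number as a block, 5 surrogate variables (sva 3.50.0), regional marker levels as covariates, a division of the fluoxetine groups, and leaving out each library. Named genes of the 5 wider lists are up to 4 called genes with the smallest p per comparison, or the closest where none was called. For likeness they are the 3 with the highest r per member, leaving out predicted genes. The bulb markers were chosen after the data were seen. No 2 libraries were copies (highest r 0.990). Scripts were tested on simulated data.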

Additional observations from a re-analysis of the deposited data

Results flagged for a closer look

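In 3 of the 108 sets of libraries tested (9 genes in 12 groups), the highest or lowest library lay far from the others by Dixon's criterion, which flags about 1 set in 20 by chance. Acan was 104 normalized counts in HT vehicle male 5 and 80.2 to 84.9 in the other 4 libraries of its group. Bcan was 10331 in HT vehicle male 3, a library high in striatal markers, and 5510 to 6634 in the other 4. HT vehicle male 3 also had the highest levels of astrocyte (2.48), oligodendrocyte precursor (2.39), microglial (2.72) and endothelial and mural (2.70) markers. HT vehicle female 3 was next on each, at 2.21, 2.09, 2.43 and 2.49. Among the other libraries high in striatal markers, Bcan was 9897 in HT vehicle female 3 and 5630 in HT fluoxetine female 2. It was 6784 in HT fluoxetine male 2 and 6096 in WT fluoxetine female 2. Tnc was 443 in HT fluoxetine female 4, a library high in bulb markers, and 218 to 278 in the other 4. The part of the regional and cell type markers in the Bcan and Tnc values was not tested.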

How the results depend on the processing

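Of the 23 differences called in the comparisons above, 15 kept their sign in every alternative and 8 took the opposite sign in at least 1. With surrogate variables, Hapln4 under fluoxetine turned to log2 0.12 in WT, 0.15 in HT, 0.32 in WT females, 0.054 in HT males and 0.14 averaged. With the division of the 3 fluoxetine groups as a term, Acan in HT turned to -0.22 and Hapln1 to 0.19 in HT and 0.11 averaged. The size of that term was set by WT fluoxetine females against males, so these values cannot tell drug and division apart in HT. The cause of the turns with surrogate variables was not tested.

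Members called moved as follows. With surrogate variables the count was 1 for genotype under fluoxetine, 1 for genotype under lithium, 0 for fluoxetine in WT, WT females, HT females and HT males, 1 for fluoxetine in HT, 0 for lithium in HT, and 2 for each averaged drug comparison. With the bulb level it was 0 for fluoxetine in WT, WT females, HT females, HT males and averaged, 1 in HT, and 2 for lithium averaged. With the division it was 0 in WT, HT and averaged. The compared groups alone gave 1 for genotype under lithium, 2 for fluoxetine in HT, 0 in HT females and HT males, 1 for lithium in WT and 0 in HT. Without the libraries high in bulb markers it was 2 for fluoxetine in HT and 0 in HT males. The striatal level, or leaving out the libraries high in it, gave 0 for lithium in HT and 0 for the averaged genotype comparison, and leaving them out gave 0 in HT females. For the averaged genotype comparison, limma without a trend gave 1 and edgeR 1. With 1 library left out, the counts ran from 2 to 3 for fluoxetine in WT, 3 to 4 in HT, 2 to 4 in WT females, 0 to 1 in HT females, 0 to 3 in HT males and 4 to 4 averaged, from 0 to 1 for lithium in HT, 1 to 2 averaged, and 0 to 3 for genotype averaged, and were 0 throughout in the other comparisons.

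Genes called in all moved by over 1.5 times in several fits. For fluoxetine in WT the count of 2464 became 251 with surrogate variables, 23 with the bulb level and 0 with the division. In HT the count of 4833 became 2244 with the compared groups alone, 1819, 1001 and 0 in those fits, and 1295 without the libraries high in bulb markers. For lithium in WT the count of 266 became 617 with the compared groups alone, 844 with surrogate variables, 450 with the bulb level, 486 and 443 without the libraries high in bulb or striatal markers, and 400 by DESeq2. In HT the count of 470 became 188 with the compared groups alone, 1001 with surrogate variables, 846 and 114 without those libraries, and 718 by DESeq2. In WT females 3272 became 453 with surrogate variables and 114 with the bulb level. In HT females 1134 became 19 with the compared groups alone, 427 with the bulb level and 450 without the libraries high in it, and in HT males 2222 became 7, 30 and 114, and 238 with surrogate variables. With surrogate variables genotype called 27, 103 and 94 genes under vehicle, fluoxetine and lithium. Averaged over genotypes, fluoxetine called 1660 with surrogate variables, 765 with the bulb level and 0 with the division, and lithium 2448 with surrogate variables and 2200 without the libraries high in bulb markers. For the averaged genotype comparison the count of 75 became 671 with surrogate variables, 158 with the bulb level, 47 with the striatal level, 46 with the division, 46 without the libraries high in striatal markers, and 170 by DESeq2.

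The replicate numbers do not pair libraries: in 17 of 68 same-numbered pairs the correlation of deviations was over 0.1 (range -0.40 to 0.55, median 0.04), and 14 of 68 libraries were closest to their own number. With the replicate number as a block, 3 members were called for fluoxetine in WT, 4 in HT, 3 in WT females, and 1 for the averaged genotype comparison, and the other counts of members did not move. Fits by sex with the division, and fluoxetine fits in WT without the libraries high in bulb markers, could not be made. Has3 and Acan were the shallowest members per kilobase, which limits their precision. Litters are not given.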
